A study of Mus musculus with 11 samples.

Results

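Genes that build the contractile apparatus of skeletal muscle were followed through the histone marks of muscle satellite cells (SCs), the stem cells that lie between a myofiber and its basal lamina. There were 9 such genes, Acta1, Tnnt2, Tnni1, Myl1, Myh3, Myh2, Myh1, Myh4 and Myh8. They were examined through 5 windows of the mouse assembly NCBI37/mm9, in which every called peak of the 8 deposited lists was collected. The windows were chr8:126405000-126430000 for Acta1, chr1:137722000-137760000 for Tnnt2, chr1:137665000-137718000 for Tnni1, chr1:66915000-67000000 for Myl1 and chr11:66880000-67160000 for the 5 myosin heavy chain genes together. They span 481.0 kb and hold 112 of the 212879 peaks of the series.

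Histone H3 trimethylated at lysine 4 (H3K4me3), lysine 27 (H3K27me3) and lysine 36 (H3K36me3) was measured by chromatin immunoprecipitation and sequencing (ChIP-seq). SCs were sorted from the hindlimb muscles of male C57BL/6 mice as cells with VCAM and without CD31, CD45 and Sca1, and the labels name no transgene or drug for any group used here. Quiescent SCs (QSCs) came from young mice of 2 to 3 months and from old mice of 22 to 24 months. The sample descriptions define activated SCs (ASCs) as young QSCs held in culture for 3 days, whereas the study's text speaks of cells from injured muscle. All 3 marks were profiled in young QSCs and young ASCs, and H3K4me3 and H3K27me3 in old QSCs, with 1 library per state and mark. There was thus no replicate, the sequencing depth is unknown and no test between states was made. The values below compare libraries, and differences in depth cannot be told apart from differences between states. The peak lists carry no gene names and no gene annotation in mm9 was used here, so the sorted cells were not checked against marker genes and peaks were assigned to windows rather than to transcription start sites.

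Contraction is the sliding of myosin thick filaments along actin thin filaments within the sarcomere. Skeletal α-actin (Acta1) forms the thin filament. Troponin I (Tnni1, the slow skeletal form) and troponin T (Tnnt2, the cardiac form, which embryonic skeletal muscle also makes) belong to the complex that sets the access of myosin to actin according to calcium. Myl1 encodes an alkali light chain of fast myosin. Of the clustered heavy chain genes, Myh3 encodes the embryonic, Myh8 the perinatal, and Myh2, Myh1 and Myh4 the adult fast myosins (IIa, IIx and IIb). Their proteins belong to terminal differentiation and not to the quiescent stem cell. The study reported that transcripts of some myosins and troponins had already risen in activated cells after injury. H3K4me3 lies at the starts of active or poised genes, H3K27me3 is the mark of Polycomb repression, and H3K36me3 is laid down along the bodies of genes as they are transcribed.

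H3K4me3 covered far more of the sarcomere windows in young ASCs than in young or old QSCs, and H3K36me3, not profiled here in old QSCs, far more in young ASCs than in young QSCs. H3K4me3 peaks covered 5.58 kb of the 5 windows in young QSCs, 7.30 kb in old QSCs and 62.5 kb in young ASCs, which is 1.16%, 1.52% and 13.0% of their length. Over the whole lists, the H3K4me3 peaks covered 1.42%, 1.48% and 1.86% of the span of the chromosomes in the same order. H3K36me3 peaks covered 2.63 kb of the windows (0.546%) in young QSCs and 77.8 kb (16.2%) in young ASCs, against 1.10% and 2.65% over the whole lists. H3K27me3 peaks covered 8.50 kb in young QSCs, 10.5 kb in young ASCs and 11.4 kb in old QSCs (1.77%, 2.19% and 2.36%), against 0.809%, 1.85% and 0.639% over the whole lists. Windows drawn around genes are not a sample of the genome, so each share is best read against the other states in the same window. The study itself chose several of these genes, among them Myl1, Tnni1 and Tnnt2, as examples of gain in these same libraries, and their gain is not independent evidence.

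**Figure D1:**
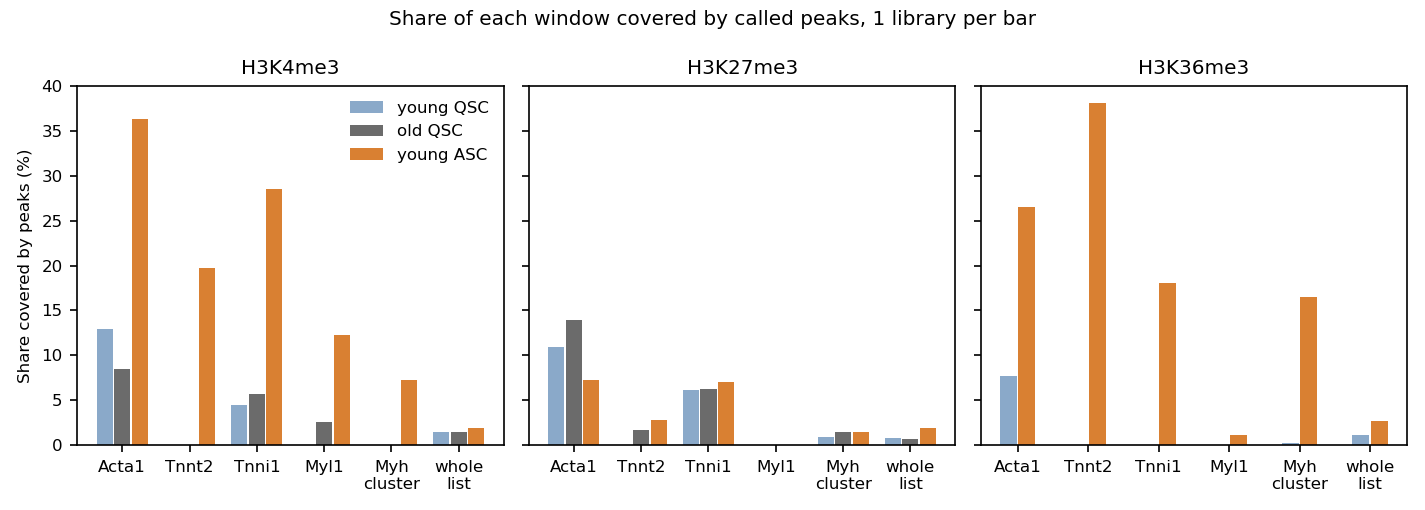
Share of each window (%) covered by called peaks of H3K4me3, H3K27me3 and H3K36me3, with 1 bar per library and the share of the whole chromosome span at the right of each panel. An empty place is a share of 0, except for H3K36me3 of old QSCs, which was not analysed here. The young ASC bar is the tallest of its window for H3K4me3 and H3K36me3 in all 5 windows, whereas in the Acta1 window H3K27me3 covered 10.9% in young QSCs, 13.9% in old QSCs and 7.19% in young ASCs.

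The promoters of the 4 genes with a window of their own are given here, from RefSeq for the assembly GRCm38.p6, because these genes gained H3K4me3 or a wider H3K4me3 peak together. Positions in GRCm38 cannot be set beside the mm9 positions of the peaks. Each sequence is the 120 bases directly before the annotated start, on the strand of the gene. Capitals mark matches to short patterns. Those of Acta1 are a CArG box (the site of serum response factor), an MCAT motif (CATTCC, the site of TEAD factors) and the letters TATAAA. Those of Myl1 are TATAAA and an MCAT motif, both read on the other strand. In Tnni1 they are E-boxes (CANNTG, the site of MyoD and its relatives), and in Tnnt2 an E-box and an MCAT motif. Counted from the annotated start, TATAAA began at -7 in Acta1 and at -95 in Myl1. Whether either serves as a TATA box was not tested. The intervals are chr8:123894776-123894895 (minus strand) for Acta1, chr1:66945057-66945176 (minus strand) for Myl1, chr1:135799301-135799420 (plus strand) for Tnni1 and chr1:135836214-135836333 (plus strand) for Tnnt2. Tnni1 and Tnnt2 have a further start in RefSeq, and the entry listed earlier was printed.
Acta1: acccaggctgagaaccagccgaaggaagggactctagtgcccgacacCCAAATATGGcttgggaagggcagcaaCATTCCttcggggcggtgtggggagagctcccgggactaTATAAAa
Tnnt2: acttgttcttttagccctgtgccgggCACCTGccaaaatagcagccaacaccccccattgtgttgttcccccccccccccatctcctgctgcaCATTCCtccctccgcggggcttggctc
Tnni1: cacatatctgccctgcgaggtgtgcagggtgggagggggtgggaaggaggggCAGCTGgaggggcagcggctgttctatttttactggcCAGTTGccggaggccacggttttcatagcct
Myl1: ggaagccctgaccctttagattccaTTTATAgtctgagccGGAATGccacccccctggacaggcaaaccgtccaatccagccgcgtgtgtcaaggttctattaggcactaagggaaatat

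All 9 genes were matched by symbol. In the 250 bases before the start and on both strands, an E-box was found in 7 of the 9 genes and in 66.2% of 32851 mouse promoters, so it is common everywhere. TATAAA was found in 6 of 9 genes and in 12.4% of all promoters, the MCAT motif in 5 of 9 and in 12.6%, the MEF2 site in 3 of 9 and in 2.92%, and the CArG box in 2 of 9 and in 1.47%. Besides Acta1 and Myl1, TATAAA began at -29 in Myh3, at -32 and -208 in Myh1, at -31, -179 and -213 in Myh4, and only at -96 in Myh8. The count takes in matches at any of these positions, and their use as a TATA box was not tested. The MEF2 sites were those of Myh1, Myh4 and Myh8, where each overlapped a TATAAA match, and the CArG boxes were those of Acta1 and Myh4. The 3 MEF2 sites had the same sequence and lay in a run of 15 bases that Myh1, Myh4 and Myh8 share. That run occurs in 3 of all promoters, so the 3 sites are not independent of each other. No MEF2 site was found in Acta1, Tnnt2, Tnni1, Myl1, Myh2 or Myh3. Each of the 9 genes entered with 1 start, whereas the 32851 promoters include every listed start of a gene. A match is a run of letters and not a bound site. Myh1, Myh2, Myh4 and Myh8 also shared an identical run of 14 bases, TTCTAATTATATCC, which occurs in 4 of all promoters, that is in these alone. It is shown in capitals in 180 bases of each promoter, at chr11:67170847-67171026 for Myh2, chr11:67199922-67200101 for Myh1, chr11:67237632-67237811 for Myh4 and chr11:67276944-67277123 for Myh8, all on the plus strand of GRCm38.p6. The longest run that Myh3 had in common with all the others was 7 bases, TCAAATT, which 505 promoters hold.
Myh2: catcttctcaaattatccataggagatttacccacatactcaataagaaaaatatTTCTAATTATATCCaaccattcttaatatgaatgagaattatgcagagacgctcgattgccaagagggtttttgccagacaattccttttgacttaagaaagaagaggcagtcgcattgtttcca
Myh1: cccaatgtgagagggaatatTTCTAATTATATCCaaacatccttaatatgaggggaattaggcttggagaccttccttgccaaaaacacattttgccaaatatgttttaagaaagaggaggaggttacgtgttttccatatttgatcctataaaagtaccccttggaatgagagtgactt
Myh4: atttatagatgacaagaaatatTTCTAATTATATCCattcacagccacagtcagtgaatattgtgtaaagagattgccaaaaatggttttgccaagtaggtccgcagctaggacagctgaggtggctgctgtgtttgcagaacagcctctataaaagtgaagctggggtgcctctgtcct
Myh8: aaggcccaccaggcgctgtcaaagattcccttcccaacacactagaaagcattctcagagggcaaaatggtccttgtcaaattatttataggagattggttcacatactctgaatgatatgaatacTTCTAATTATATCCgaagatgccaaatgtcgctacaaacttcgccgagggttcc

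The Acta1 window already carried H3K4me3 together with H3K27me3 in quiescent cells, as did the right end of the Tnni1 window, described further on. In young QSCs an H3K4me3 peak of 2501 bp (chr8:126414802-126417302, score 784) and an H3K27me3 peak of 2717 bp (chr8:126415388-126418104, score 588) shared 1915 bp, and a narrow H3K4me3 peak of 735 bp with a score of 56.8 lay beside them. The score is the authors' MACS score, which grows with the significance of a peak within its own library, from 50 for the weakest peaks called (a p-value of 1e-05) to a ceiling near 3100. Shared bases come from separate libraries, so they do not show that both marks sat on the same molecule or in the same cell.

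In young ASCs the H3K4me3 peak of Acta1 had a score of 3100 and reached 6789 bp (chr8:126415325-126422113), 2.10 times the summed width of the 2 quiescent peaks it overlapped. Only 3.44% of the 19289 ASC peaks with a quiescent counterpart were at least 2 times as wide as it, and the median ratio was 1.07. At the same place H3K27me3 was called in 2 peaks of 987 bp (score 90.4) and 810 bp (score 81.6), which merging within 1 kb joins into 1. Such widths are common in the ASC H3K27me3 list, whose median is 866 bp against 1228 bp in young QSCs. The 2 peaks covered 66.1% of the young QSC peak. Over the whole list, young QSC H3K27me3 peaks with a counterpart were covered to a median of 96.5%. The Acta1 H3K27me3 peak outscored 88.7% of its list in young QSCs, and the ASC peaks outscored 45.9% and 39.7% of theirs. The ASC list is also the larger, with 38307 peaks against 11658. With a score of at least 100 demanded, no H3K27me3 peak was left at Acta1 in ASCs. An H3K36me3 peak of 2719 bp (chr8:126415633-126418351, score 486), absent from young QSCs, lay within the widened H3K4me3 peak. All 3 marks were thus called over the same stretch of Acta1 in ASCs.

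Further H3K36me3 peaks at the right end of the Acta1 window were called in both states. They numbered 2 in young QSCs (1155 bp and 755 bp, the former with a counterpart) and 3 in young ASCs, of 1190 to 1391 bp. In all, H3K36me3 covered 7.64% of the Acta1 window in young QSCs and 26.5% in young ASCs. In the order of RefSeq, Nup133 is a neighbour of Acta1, and the peaks at this end could not be assigned to either gene here. The ASC list also held 3 H3K4me3 peaks of 556 to 1147 bp at the left end of the window without a counterpart in QSCs.

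Tnnt2 had no peak of any mark in young QSCs. In young ASCs an H3K4me3 peak of 4358 bp (chr1:137731405-137735762, score 3100) and 3 smaller ones of 813 to 1341 bp covered 19.7% of its window. A block of 3 H3K36me3 peaks (chr1:137734091-137749931) began inside the main H3K4me3 peak and ran 14169 bp past its end, with 91.5% of its 15841 bp covered. Its widest peak, 8609 bp with a score of 1215, was wider than 99.5% of the ASC H3K36me3 list. The H3K27me3 peaks in the Tnnt2 window lay near its left edge, apart from the other marks. Young ASCs had a peak of 1045 bp (score 77.8) and old QSCs another of 638 bp (score 59.0), and the pair did not overlap.

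Within the 5 windows, the widest H3K4me3 peak without a quiescent counterpart was at Tnni1. In young ASCs an H3K4me3 peak of 6589 bp (chr1:137695140-137701728, score 3100) stood where neither young nor old QSCs had a peak. Ranked by width among the 13557 ASC H3K4me3 peaks without a counterpart in young QSCs, it was number 8. An H3K36me3 block of 2 peaks (3671 bp with a score of 584, and 4610 bp with a score of 803) shared 2784 bp with it and ran 6440 bp past its end, to chr1:137708168. H3K36me3 covered 18.1% of the Tnni1 window in young ASCs and none of it in young QSCs.

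The ends of the Tnni1 window showed other patterns and may belong to neighbours, since Phlda3 precedes Tnni1 and Lad1 lies between Tnni1 and Tnnt2 in the order of RefSeq. At the left edge, an ASC H3K4me3 peak of 8846 bp (chr1:137660072-137668917) crossed the limit of the window and overlapped young QSC peaks whose summed width was 3625 bp, a ratio of 2.44. At the right end H3K4me3 and H3K27me3 were called together in all 3 states. H3K4me3 there was 1199 bp wide in young QSCs, 1049 bp in young ASCs and 1430 bp in old QSCs. H3K27me3 formed a single peak of 3244 bp in young QSCs (score 1042) and of 3692 bp in young ASCs (score 3100), and 4 peaks of 619, 1204, 829 and 823 bp in old QSCs. Unlike Acta1, this site kept a wide H3K27me3 peak in ASCs.

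Myl1 had no peak in young QSCs and no H3K27me3 peak in any state. In young ASCs, 4 H3K4me3 peaks (chr1:66980079-66991924) lay 65.1 to 76.9 kb from the left edge of the window, of 2403, 1926, 685 and 4343 bp, the last with a score of 2474. H3K36me3 at Myl1 was a single peak of 940 bp (score 82.7), outside all H3K4me3 peaks, and covered 1.11% of the window. Myl1 thus had the lowest H3K36me3 share of the 5 windows in ASCs, and with a score of at least 100 it had none. With the window extended by 10 kb at each end, the ASC library had 3 H3K36me3 peaks and young QSCs had 1 H3K4me3 peak.

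**Figure D2:**
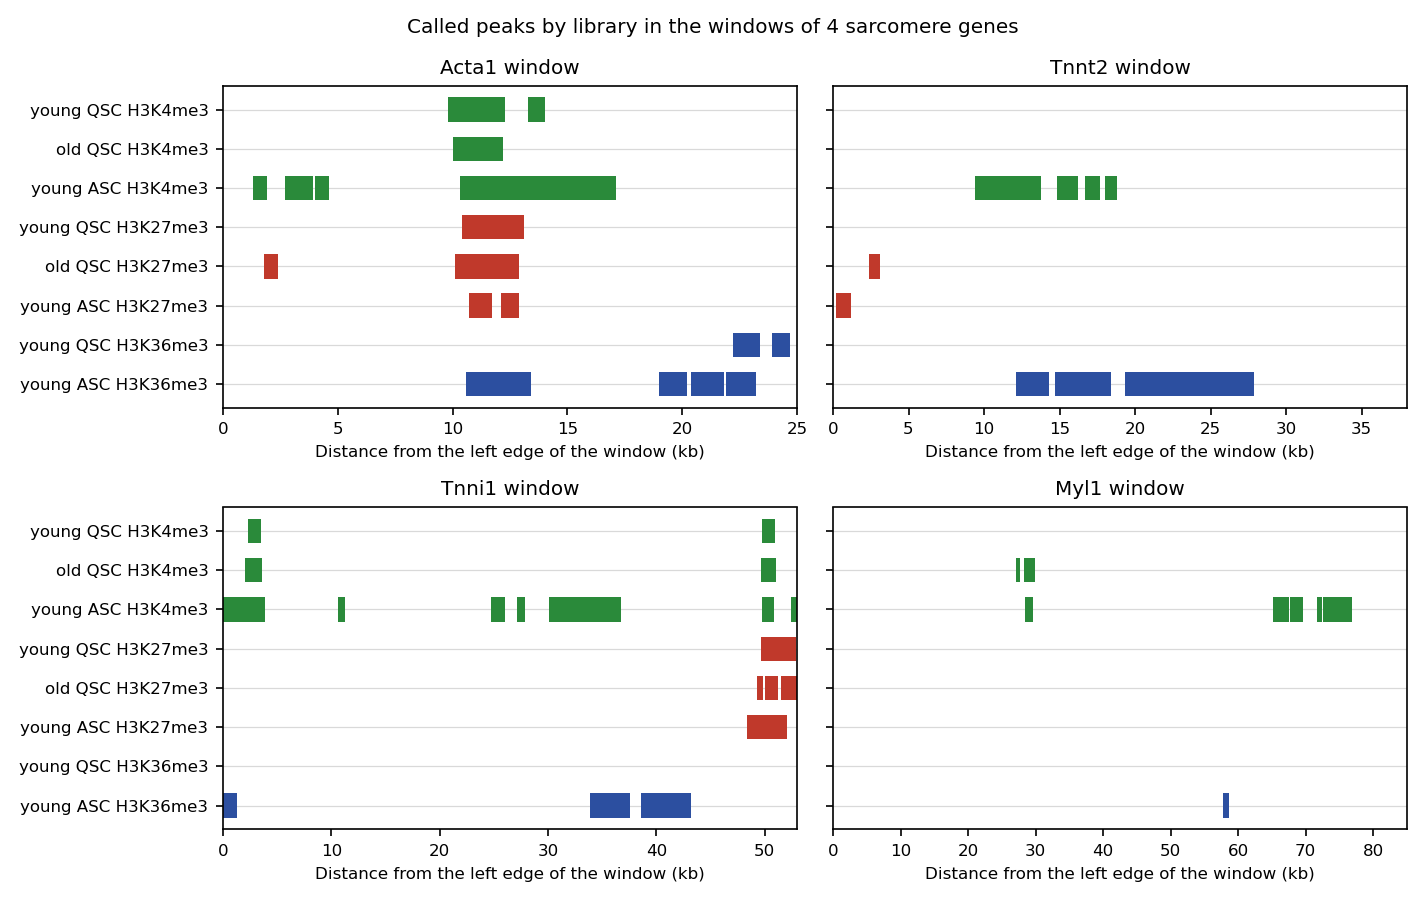
Called peaks of the 8 libraries in the windows of Acta1, Tnnt2, Tnni1 and Myl1, by distance from the left edge of the window (kb), with H3K4me3 in green, H3K27me3 in red and H3K36me3 in blue. Besides the peak at the left edge of the Tnni1 window, wide H3K4me3 peaks of 4343 to 6789 bp appear in the young ASC rows, those of Tnnt2, Tnni1 and Myl1 in places where both QSC rows are empty.

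The myosin heavy chain window, the longest at 280.0 kb, held no H3K4me3 peak in young or old QSCs and 15 in young ASCs, which covered 7.29% of it. The peaks fell into separate groups. The widest were at chr11:66890662-66895010 (4349 bp, score 2958), chr11:67013338-67016663 (3326 bp, score 2347) and chr11:67090527-67092881 (2355 bp, score 409). H3K36me3 went from a single peak of 717 bp (score 56.2) in young QSCs to 28 peaks in young ASCs, and from 0.256% to 16.5% of the window.

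When H3K36me3 peaks at most 10 kb apart were joined, the ASC peaks formed 3 long blocks, besides 1 small peak across the left edge. The leftmost block, chr11:66895492-66915249, held 10 peaks with 85.4% of its length covered and began 481 bp past the end of the widest H3K4me3 peak. The middle block, chr11:67005912-67035401, held 7 peaks with 46.3% covered and contained the H3K4me3 peak of 3326 bp. The rightmost block, chr11:67095948-67121318, held 10 peaks with 60.8% covered and began 3066 bp past the end of the H3K4me3 peak of 2355 bp, which had the lowest score of the 3. The highest H3K36me3 scores in the blocks were 534, 372 and 169 from left to right. With gaps of at most 5 kb the same peaks formed 6 blocks in place of 4, the edge peak included. In the order given for the window, the genes are Myh3, Myh2, Myh1, Myh4 and Myh8. Blocks were not assigned to single genes, because no mm9 annotation was used and because reads from these close paralogs may map to more than 1 of them. How such reads were treated is not given in the sources used here.

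H3K27me3 peaks covered 0.908% of the heavy chain window in young QSCs, 1.43% in young ASCs and 1.40% in old QSCs. Over the whole lists the shares were 0.809%, 1.85% and 0.639%. The positions of the peaks differed between states. Young QSCs had 2 peaks, chr11:66896714-66898767 (2054 bp, score 226) and chr11:66905774-66906262 (489 bp, score 65.4), neither with a counterpart in young ASCs or old QSCs. In ASCs, H3K36me3 peaks covered all 2054 bp of the wider and 484 bp of the narrower. Young ASCs and old QSCs each had 5 peaks there, of 607 to 927 bp and 569 to 934 bp, and 3 of the old peaks overlapped ASC peaks. Scores ran from 52.9 to 152 in the ASC peaks and from 53.1 to 211 in the old peaks. With a score of at least 100, 2 peaks were left in ASCs, 2 in old QSCs and 1 in young QSCs. With lists of equal length, 0, 2 and 2 were left in the same order, so these positions rest in part on low-scoring peaks. Of the H3K27me3 peaks in this window, 2 of 2 in young QSCs, 4 of 5 in young ASCs and 4 of 5 in old QSCs overlapped an ASC H3K36me3 peak, against 1.60%, 2.13% and 4.63% of the whole lists. H3K36me3 covers 16.5% of this window and 2.65% of the chromosomes, and the part of this in these shares was not tested.

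**Figure D3:**
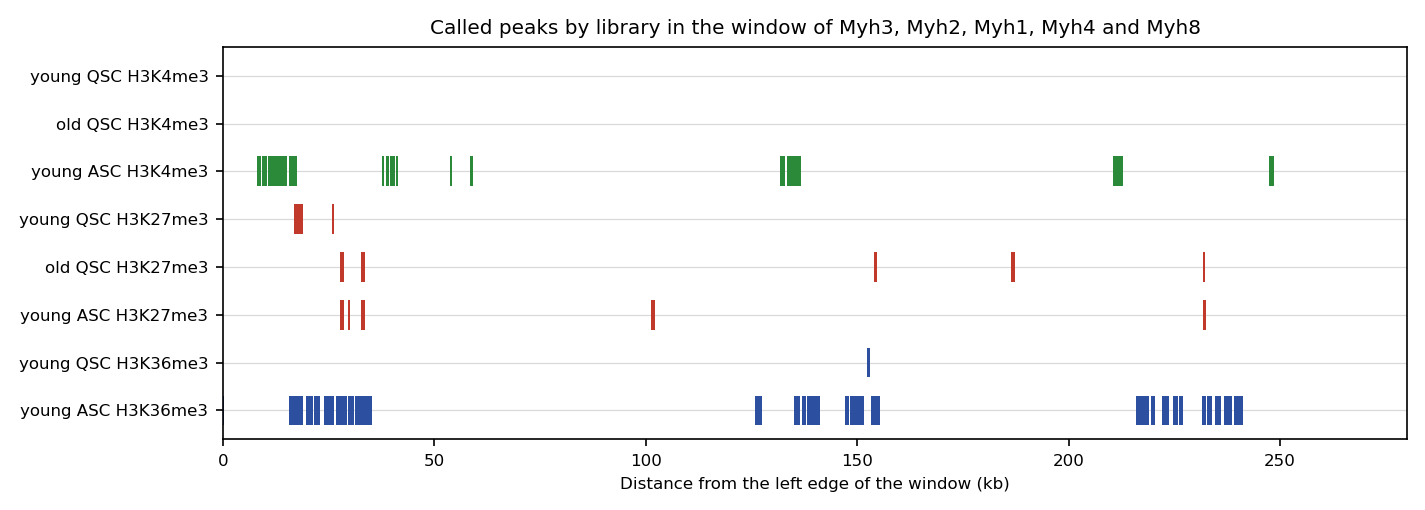
Called peaks of the 8 libraries in the window of Myh3, Myh2, Myh1, Myh4 and Myh8, by distance from its left edge (kb), with H3K4me3 in green, H3K27me3 in red and H3K36me3 in blue. The 15 H3K4me3 peaks all belong to young ASCs, whose 28 H3K36me3 peaks form 3 separate blocks besides a small peak at the left edge.

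Counted as peaks, 33 of the 36 ASC H3K4me3 peaks in the windows had no overlapping H3K4me3 peak in young QSCs, against 41.3% of the ASC list. They were all 6 peaks of Myl1, all 4 of Tnnt2, all 15 of the heavy chain window, 5 of 7 at Tnni1 and 3 of 4 at Acta1. In the other direction, none of the 4 young QSC H3K4me3 peaks lacked a counterpart in ASCs, against 21.4% of the QSC list. For H3K36me3, 38 of 39 ASC peaks had no young QSC counterpart (73.7% of the list), the exception being at Acta1, and 2 of 3 young QSC peaks had no ASC counterpart (40.8%). For H3K27me3, 6 of 9 ASC peaks had no young QSC counterpart (77.4%) and 2 of 4 young QSC peaks had no ASC counterpart (25.7%). The counts depend on how peaks are filtered and joined. For H3K4me3, 20 of 23 ASC peaks had no counterpart with a score of at least 100 (30.2% of the list so filtered), 18 of 21 after merging within 1 kb (35.0%) and 21 of 24 with lists cut to equal length by score (26.2%). For H3K36me3 they were 26 of 27 (77.9%), 14 of 15 (70.0%) and 25 of 26 (59.4%) in the same order. For H3K27me3 they were 2 of 3 (73.7%), 5 of 7 (79.3%) and 0 of 1 (50.4%), too few to read against the list. The share of gained H3K4me3 and H3K36me3 peaks was thus above that of the list under each of these settings. Several of these genes were picked by the study for such gain in the same libraries, so this excess is not independent evidence under any setting.

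The gained H3K4me3 peaks of the sarcomere windows were wide for gained peaks, though not for the list. The median of the 33 was 1047 bp in width and 181 in score, against 699 bp and 88.0 for all 13557 gained peaks, and against 1150 bp and 342 for all ASC H3K4me3 peaks, gained or not. Of these, 5 exceeded 3 kb, as did 159 of all the gained peaks (1.17%), and this width was picked with the values in view. They were the main peaks of Tnni1 (rank 8 by width), Tnnt2 (rank 38), Myl1 (rank 40) and 2 peaks of the heavy chain window (ranks 39 and 109). The next in width were 2403 bp at Myl1 and 2355 bp in the heavy chain window. Tnnt2, Myl1 and the leftmost heavy chain peak were near equal, at 4358, 4343 and 4349 bp.

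**Figure D4:**
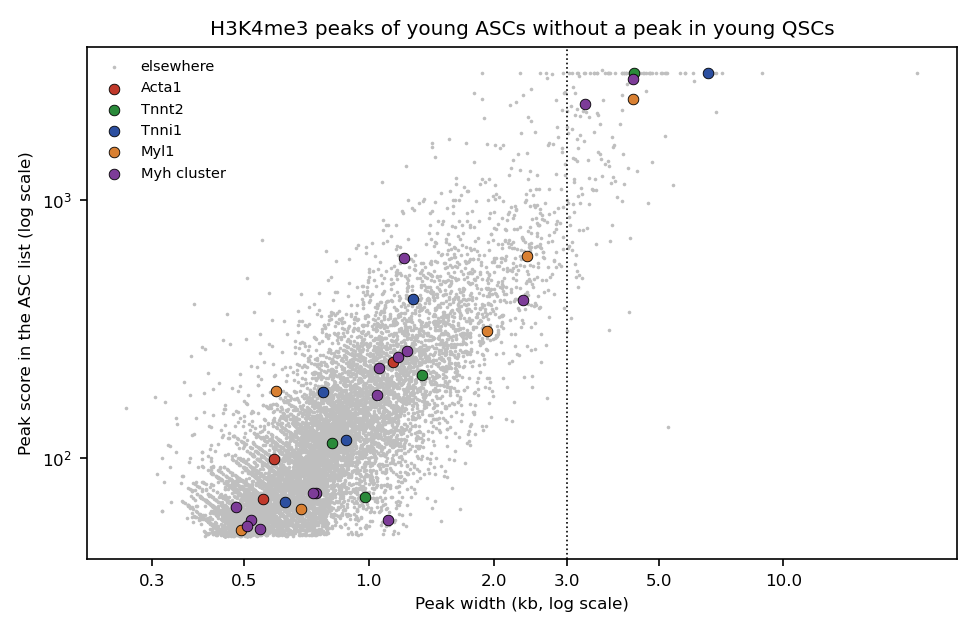
Width (kb, log scale) and score (log scale) of each of the 13557 H3K4me3 peaks of young ASCs without an overlapping peak in young QSCs, with the 33 in the sarcomere windows coloured by window and a dotted line at 3 kb. The 5 to the right of the line belong to Tnni1, Tnnt2, Myl1 and, with 2 peaks, the heavy chain window, and the many grey points at the top share the score ceiling near 3100.

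In young QSCs, 2 of the 4 H3K4me3 peaks in the windows overlapped H3K27me3 (14.0% of the list), as did 2 of 36 in young ASCs (16.9%) and 2 of 5 in old QSCs (28.6%). In each state they were the Acta1 peak and the peak at the right end of the Tnni1 window. A small ASC H3K4me3 peak beside the latter did not overlap H3K27me3 of ASCs. None of the 4 young QSC H3K4me3 peaks overlapped H3K36me3 (12.9% of the list), whereas 10 of 36 did in young ASCs (7.70%). Those 10 were 4 at Tnnt2, 2 at Tnni1, 1 at Acta1 and 3 in the heavy chain window, and none was at Myl1.

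H3K4me3 peaks covered similar shares of the sarcomere windows in young QSCs (1.16%) and old QSCs (1.52%). Tnnt2 and the heavy chain genes had no H3K4me3 peak at either age. At Acta1 the H3K4me3 peak was 2501 bp wide in young and 2109 bp in old QSCs (score 283). It outscored 53.7% of its list in young and 40.6% in old QSCs. The peak at the right end of the Tnni1 window outscored 49.4% and 56.0%. The narrow Acta1 peak of young QSCs was absent in old QSCs. That made 1 of 4 young QSC peaks without an old counterpart, where the list had 19.5%. Of the 5 old QSC H3K4me3 peaks, 2 had no young counterpart, and here too the list had 19.5%. Both lay in the Myl1 window, 27.1 to 29.9 kb from its left edge, and could not be assigned to a gene here. They were 590 bp (score 55.3) and 1613 bp wide (chr1:66943313-66944925, score 119). The latter shared 1088 bp with 2 narrow ASC peaks, far from the main Myl1 peaks of ASCs, so 1 of the 2 overlapped an ASC peak, against 22.3% of such peaks in the list. The scores of both are low, and neither reached the width of the main ASC peaks.

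H3K27me3 at Acta1 was wide at both ages, 2717 bp in young QSCs and 2816 bp in old QSCs (chr8:126415085-126417900, score 648). The old peak was wider than 99.1% and scored above 97.4% of its list, and it covered 92.5% of the young peak, where young peaks with an old counterpart were covered to a median of 58.9%. It shared 2071 bp with the old QSC H3K4me3 peak. In the windows, 7 of 12 old H3K27me3 peaks had no young QSC counterpart (73.9% of the list) and 2 of 4 young peaks had no old counterpart (68.2%). The 7 were 5 in the heavy chain window, 1 at Tnnt2 and 1 at the left end of the Acta1 window, and 3 of the 7 overlapped an ASC H3K27me3 peak (42.5%). With a score of at least 100, 2 of 5 old peaks had no young counterpart (62.0% of the list so filtered), and 3 of 8 with lists of equal length (67.2%). These counts are small, and the old H3K27me3 library as a whole had narrower peaks, with a median width of 838 bp against 1228 bp in young QSCs.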

How the data were processed

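H3K4me3 and H3K27me3 were profiled by ChIP-seq in 3 states of SCs (young QSCs, young ASCs and old QSCs) and H3K36me3 in the young states, 1 library each. Samples were grouped by their labels, and the 3 input libraries were not analysed here on their own. For each of the 8 ChIP libraries the authors deposited their peaks as positions with a score, named as MACS names them and called per library against an input library. The submitters' processing notes name Bowtie and mm9. The version of the caller, the number of reads and the treatment of duplicate reads and of reads with several matches are not given in the sources used here. The deposited score is 10 times the negative log10 of the peak's p-value, on the MACS scale. It depends on depth and was not compared between lists.

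Every peak that touched a window by 1 bp or more was kept, and the same minimum of 1 shared bp defined a counterpart in another list. Shares over a whole list were computed from all its peaks. The counting of overlaps was tested on simulated data with planted overlaps. Python 3.11.15, numpy 2.4.6 and matplotlib 3.10.9 were used. The named genes were the 9 given for this work, and every peak in their windows was accounted for. The members, the windows and the lists were chosen with earlier results of these data known. The study chose Myl1, Tnni1 and Tnnt2 as shown examples and listed Myh1, Myh3 and Myh8 from these libraries. A planned count over other sarcomere genes was not run, because gene positions in mm9 were not used here and coordinates were not converted between builds. Promoters came from RefSeq (GRCm38.p6) and gave sequence only. The alternatives were a minimum score of 100 (p-value 1e-10), shared bases amounting to 50% or more of the shorter peak, joining of peaks within 1 kb of each other, lists of a mark cut to equal length by score, peaks wholly inside a window, and windows extended by 10 kb.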

Additional observations from a re-analysis of the deposited data

How the results depend on the processing

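The counts of gained peaks fell when peaks were filtered or joined. Of the gained H3K4me3 peaks of young ASCs (33), 20 were counted with a score of at least 100, 18 after merging of peaks less than 1 kb apart, and 21 with the lists of a mark cut to equal length by score. Of the gained H3K36me3 peaks (38), 14 were counted after merging and 25 with lists of equal length. Of the H3K27me3 peaks of young ASCs without a young QSC counterpart (6), 2 were counted with a score of at least 100 and 0 with lists of equal length, so this count rests on low-scoring peaks. Of the H3K4me3 peaks of old QSCs without a young counterpart (2), 1 was counted with a score of at least 100 and 1 after merging. Of the H3K27me3 peaks of old QSCs without a young counterpart (7), 2 were counted with a score of at least 100 and 3 with lists of equal length. Fewer peaks enter each of these alternatives by construction. The other alternatives left these 5 counts within 1.5 times their value.

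Of 40 counts of peaks per library and window, 16 moved by more than 1.5 times with a score of at least 100, 12 with merging, 9 with lists of equal length, 10 with extended windows, and none with the stricter overlap or with peaks wholly inside a window. The gap of 5 kb for H3K36me3 blocks was chosen after seeing the data. No paired analysis was possible because each state and mark had 1 library. The unknown depth limits every comparison between states: a peak that was not called may lie below the threshold of its library. The planned count over other sarcomere genes was not run for want of gene positions in mm9.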
